A study of Mus musculus with 3 samples.

Results

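Noncoding host genes and nuclear long RNAs were examined in 3 cultures of Ba/F3, an interleukin-3-dependent mouse haematopoietic line. The members were chosen by symbol: the numbered small nucleolar RNA host genes (Snhg), the microRNA host genes named Mir with the ending hg, and Neat1, Malat1, Gas5, Pvt1 and Dancr. The rule found 36 genes with 35 symbols among 55106 genes joined across the cultures, since Snhg4 names a pair of annotated genes. The group was also proposed because some of its genes were higher in culture 1 than in cultures 2 and 3, so every comparison of culture 1 with the other cultures is a description here and carries no test. All 3 cultures belong to one group, with no untreated or control samples: the cells carried no stated modification and were grown separately at 37 °C in RPMI with 10% fetal calf serum, penicillin-streptomycin and 0.2 ng/mL recombinant murine interleukin-3. Polyadenylated RNA was sequenced from each.

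Small nucleolar RNAs (snoRNAs) guide the chemical modification and processing of ribosomal RNA, and in mammals most are cut from introns of longer transcripts. Some of these hosts encode proteins, while others, such as the Snhg genes and Gas5, make spliced RNAs with no long open reading frame, many of which are removed by nonsense-mediated decay when they are translated. MicroRNA host genes give rise to hairpins that Drosha and Dicer cut to short RNAs, and Malat1 and Neat1 stay in the nucleus, in nuclear speckles and paraspeckles. The assay measured the long transcripts and not the mature small RNAs.

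The microRNAs carried by the 2 detected microRNA host genes are shown first, because the host genes are known for them. Mir17hg contains 6 microRNA genes on chromosome 14 and Mir142hg contains Mir142 on chromosome 11, and RefSeq (GRCm38.p6) lists 13 mature sequences for them with 11 different seeds. The arms usually counted as the active ones follow, 5′ to 3′, with the seed (bases 2 to 8), which pairs with targets, in capitals.
miR-17-5p: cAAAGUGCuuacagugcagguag
miR-20a-5p: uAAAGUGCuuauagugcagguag
miR-18a-5p: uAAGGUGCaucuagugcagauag
miR-19a-3p: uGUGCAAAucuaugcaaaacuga
miR-19b-3p: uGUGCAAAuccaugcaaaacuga
miR-92a-3p: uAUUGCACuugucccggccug
miR-142a-5p: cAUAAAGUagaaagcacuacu
miR-142a-3p: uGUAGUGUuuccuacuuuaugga
From Mir17hg, miR-17-5p and miR-20a-5p have the same seed, as do miR-19a-3p and miR-19b-3p, while miR-18a-5p and miR-92a-3p have seeds of their own. The 2 arms of Mir142 have different seeds.

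Start sites are shown for the members with most reads that the RefSeq table holds, because several snoRNA host RNAs are known for a terminal oligopyrimidine start, a C followed by a run of C and T, which ties translation to growth signals. The windows below span 30 bases on each side of the start in RefSeq (GRCm38.p6), with the first 5 transcribed bases in capitals. They lie at chr19:5802643-5802702 (minus strand) for Malat1, chr1:161034571-161034630 and chr1:161035136-161035195 (plus strand) for the first and second Gas5 starts, chr2:158361493-158361552 and chr2:158361480-158361539 (minus strand) for the Snhg17 starts, and chr19:8723457-8723516 (plus strand) for Snhg1. Snhg8, at chr3:123508307-123508366 (minus strand), was added after its bases were seen.
Malat1: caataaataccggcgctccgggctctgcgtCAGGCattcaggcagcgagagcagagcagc
Gas5, first start: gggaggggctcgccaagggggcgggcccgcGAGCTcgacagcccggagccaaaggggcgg
Gas5, second start: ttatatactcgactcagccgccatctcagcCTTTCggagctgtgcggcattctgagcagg
Snhg17, first start: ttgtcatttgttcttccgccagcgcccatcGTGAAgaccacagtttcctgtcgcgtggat
Snhg17, second start: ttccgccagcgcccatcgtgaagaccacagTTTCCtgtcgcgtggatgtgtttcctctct
Snhg1: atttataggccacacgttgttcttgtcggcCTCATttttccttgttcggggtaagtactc
Snhg8: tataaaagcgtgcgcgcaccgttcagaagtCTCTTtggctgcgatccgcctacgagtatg
A C at the start followed by 4 pyrimidines, read on the transcribed strand, was present at the second Gas5 start and the Snhg8 start. Of 26 members with a promoter in the table, 3 had this start (Gas5, Snhg8 and the undetected Mir217hg), against 3.01% of 27025 genes. RefSeq starts can lie away from the gene start of the annotation used for the levels. The distance was 744 bases for the second Gas5 start, 68 for Snhg8, 21000 for Mir217hg and as much as 474418 for Snhg14. Snhg1 began with C and T and then met an A within the 5 bases.

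The Gas5 promoter at the second start, chr1:161034916-161035215, is shown whole because it held another motif searched for. The cyclic AMP response element TGACGTCA, which reads the same on both strands, began 46 bases before the start, and the motif and the first 5 transcribed bases are in capitals.
Gas5 promoter: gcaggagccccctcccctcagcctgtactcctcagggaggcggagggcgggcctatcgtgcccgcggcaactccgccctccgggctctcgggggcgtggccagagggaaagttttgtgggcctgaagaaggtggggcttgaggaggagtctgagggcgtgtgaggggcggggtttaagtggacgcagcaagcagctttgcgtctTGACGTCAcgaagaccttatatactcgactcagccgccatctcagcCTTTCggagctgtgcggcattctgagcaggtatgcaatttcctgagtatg
TGACGTCA was found in the promoters of 3 of the same 26 members (Gas5, Snhg15 and the undetected Mir9-3hg), against 2.03% of all genes in the table. The E-box CACGTG, also the same on both strands and a site that Myc with Max can bind, was found for 2 members, Snhg15 and the undetected Snhg9, against 8.09% of all genes. A match in these windows of 300 bases is a run of letters and no evidence of binding.

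The libraries held between 32044889 and 37180883 reads, and levels are given in CPM, the reads of a gene scaled to a library of 1000000 reads. In the deposited table, identifiers and symbols name different genes in every row with reads, and culture 3 was therefore joined to cultures 1 and 2 by gene. Markers of the line were present: all 7 genes of the Ba/F3 list were detected, among them Csf2rb, the common receptor chain for interleukin-3, and Ptprc, the leukocyte antigen CD45. Fibroblast and epithelial lists had 0 of 4 genes detected each. The B lineage list had 2 of 6, the T cell list 1 of 5, the erythroid list 3 of 4 and the macrophage list 4 of 4, with a macrophage sum of 124, 129 and 126 CPM in cultures 1, 2 and 3. The erythroid sum was 174, 197 and 196 CPM in the same order, most of it from Hba-a1 with a mean of 182 CPM. Cd79b of the B lineage list averaged 19.5 CPM and Cd3g of the T cell list 4.18 CPM. Ebf1 and Ms4a1 of the B lineage and Cd8a of the T cell list had no read.

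A member counted as detected at 1 CPM or more in all 3 cultures, and 18 of the 36 members were. The same threshold was met by 19.9% of all genes, 46.0% of protein-coding genes and 4.22% of the 9315 other genes annotated as lincRNA, processed transcript or antisense. Detection differed by role: 13 of 19 snoRNA host genes, both nuclear long RNAs, Pvt1 and 2 of 14 microRNA host genes were detected. Of the detected members 10 are annotated as processed transcript and 8 as lincRNA. Their median level was 18.3 CPM, against 39.7 CPM for all detected genes and 3.52 CPM for 393 other detected noncoding genes.

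The members took 0.117%, 0.0788% and 0.0741% of the reads of cultures 1, 2 and 3 (Wilson 95% intervals of 0.116 to 0.118, 0.0779 to 0.0797 and 0.0732 to 0.0750), a mean of 0.0900% ± 0.0236 (SD, n = 3). Malat1, Neat1 and Gas5 supplied 67.5% of these reads on average over the cultures. The intervals cover counting error only, since reads without molecular identifiers are not independent molecules.

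Malat1, a nuclear speckle RNA, had the highest level of the members, at 379, 298 and 266 CPM in cultures 1, 2 and 3 (12146, 10097 and 9903 reads). These are levels in libraries of polyadenylated RNA, and how fully such libraries capture Malat1 or Neat1 was not tested. Its mean of 314 ± 58.1 CPM (SD, n = 3) was above that of 95.3% of detected genes. The gene has 1 exon of 6983 bases at chr19:5795690-5802672. The 3 cultures had separate counting intervals, with culture 1 highest and culture 3 lowest.

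Neat1, the RNA scaffold of paraspeckles, lies 22036 bases from Malat1 on the same strand, at chr19:5824708-5845478. Neat1 stood at 273, 112 and 103 CPM in the 3 cultures (8734, 3802 and 3837 reads), with exact Poisson 95% intervals of 267 to 278, 109 to 116 and 99.96 to 107 CPM. Culture 1 was 2.53 times the mean of cultures 2 and 3, the highest ratio among the detected members, and cultures 2 and 3 differed by a factor of 1.09. The SD of 95.3 CPM around a mean of 163 CPM was the largest of the detected members, and without culture 1 the mean was 108 CPM. A short and a long form share the 5′ end of Neat1, and gene totals do not tell them apart.

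**Figure D1:**
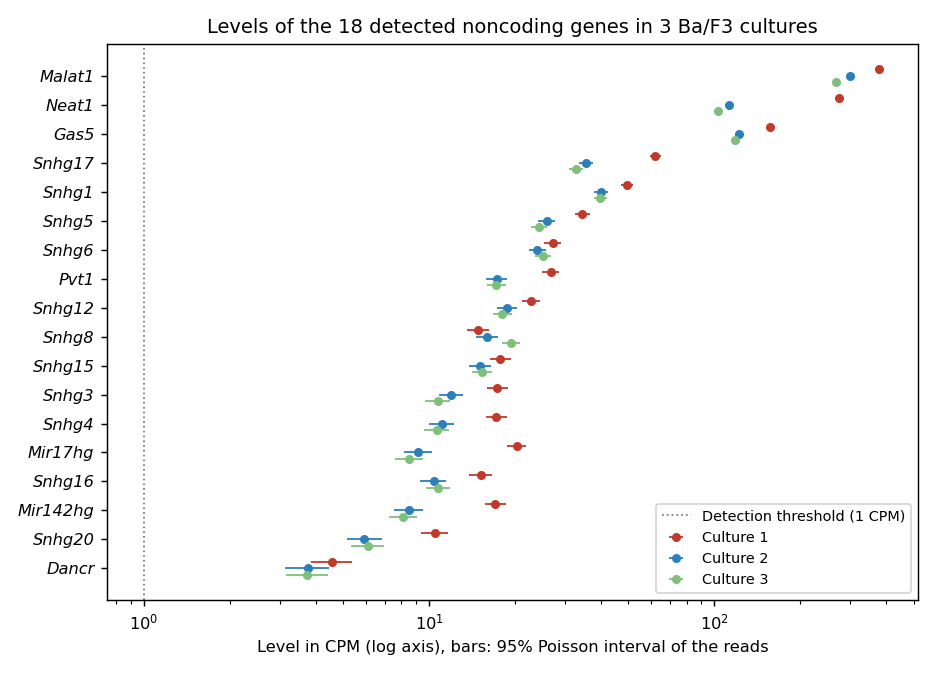
Levels of the 18 detected members in CPM on a log axis, one point per culture with the exact Poisson 95% interval of its reads, ordered by mean level; the dotted line is the detection threshold of 1 CPM. Malat1 lies at 266 to 379 CPM and Dancr at 3.74 to 4.56 CPM, and culture 1 (red) is to the right of the other cultures for 17 of the 18 genes.

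Gas5, named for growth arrest, was the most abundant snoRNA host at 157, 122 and 118 CPM in cultures 1, 2 and 3. It contains 10 annotated snoRNA genes, counting both overlapping entries of Snord80. Snhg17 followed at 62.1, 35.5 and 32.7 CPM, and Snhg1, with 8 snoRNA genes, at 49.3, 40.1 and 39.9 CPM. In each of the 3 genes the interval of culture 1 lay above both others, while the ratio to their mean ran from 1.23 for Snhg1 to 1.82 for Snhg17.

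Snhg5, host of Snord50a and Snord50b, stood at 34.5, 25.8 and 24.3 CPM. Snhg12, with 5 snoRNA genes counting both overlapping entries of Snora16a, stood at 22.7, 18.7 and 18.1 CPM. Snhg3, which contains both copies of Snora73, stood at 17.4, 11.95 and 10.7 CPM. In all 3 of these hosts culture 1 was above the others beyond the counting intervals. The exons of Snhg3 overlap those of Rcc1 on the same strand over 135 bases, 13.7% of the Snhg3 exon length, and reads there cannot be given to one gene.

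The Snhg4 noncoding gene, host of Snora74a, had 17.2, 11.1 and 10.6 CPM in cultures 1, 2 and 3, while the protein-coding gene of the same symbol, which overlaps it, had 7, 5 and 3 reads. Snhg16, host of 3 Snord1 genes, had 15.2, 10.4 and 10.8 CPM. Snhg20, which hosts a small Cajal body RNA gene, had 10.5, 5.93 and 6.11 CPM. Culture 1 was again the highest in each, at 1.59, 1.44 and 1.74 times the mean of cultures 2 and 3 for Snhg4, Snhg16 and Snhg20. Exons of Snhg16 overlap those of St6galnac2 on the opposite strand over 497 bases, but St6galnac2 had 3, 0 and 0 reads.

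In 4 snoRNA hosts the culture 1 interval did not lie above both others. Snhg6, host of Snord87, had 27.1, 23.9 and 25.0 CPM, Snhg15, host of Snora9, had 17.8, 15.1 and 15.3 CPM, and Dancr, an RNA described in human cells as holding back differentiation and host of Snora26, had 4.56, 3.75 and 3.74 CPM. Their ratios of 1.11, 1.17 and 1.22 were the lowest among members with culture 1 on top. Snhg8, host of Snora24, went the other way, with 14.9, 16.0 and 19.4 CPM, so that culture 3 was the highest with its interval above both others.

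Mir17hg, the host of the miR-17 to miR-92a cluster at chr14:115042879-115046727, had 20.3, 9.15 and 8.50 CPM (651, 310 and 316 reads). Mir142hg, host of the blood cell microRNA miR-142 at chr11:87755577-87757270, had 17.0, 8.47 and 8.10 CPM (546, 287 and 301 reads). Both had culture 1 at more than 2 times the mean of cultures 2 and 3, with ratios of 2.30 and 2.06, and both had cultures 2 and 3 close to each other. Pvt1, the long noncoding neighbour of Myc at chr15:62037986-62378096, had 26.7, 17.2 and 17.2 CPM and a ratio of 1.55.

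The 18 members below the threshold split evenly into 9 with some reads and 9 with none. Closest to it were Mir22hg, with 57, 40 and 35 reads in cultures 1, 2 and 3 and a lowest level of 0.941 CPM, and Mir155hg, with 27, 24 and 22 reads and a lowest level of 0.592 CPM. Just inside were Dancr and Snhg20, with lowest levels of 3.74 and 5.93 CPM, so that no member lay between 0.941 and 3.74 CPM by its lowest culture. Mir181a-1hg had 43, 11 and 15 reads, and Snhg10 had 12, 11 and 20. The protein-coding entry of Snhg4 and Snhg11 averaged 0.149 and 0.140 CPM, and Snhg14, Snhg9 and Mir670hg had at most 4 reads in any culture.

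Members with no read in any culture were Mir205hg, Mir217hg, Mir100hg, Mir9-3hg, Mir124-2hg, Mir124a-1hg, Mir99ahg, Mir133a-1hg and Snhg18. A count of 0 was taken to allow up to 3 reads, a one-sided limit of 0.0936, 0.0885 and 0.0807 CPM in cultures 1, 2 and 3, and the two-sided Poisson intervals used elsewhere reach 0.115, 0.109 and 0.0992 CPM. Several of these are named for microRNAs known from other tissues: miR-124 and miR-9 are neuronal, miR-133a is muscle-specific and miR-205 is epithelial.

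Levels of different genes were compared per kilobase of annotated exon, merged over isoforms. On this scale Malat1 was first at 45.0 ± 8.32 CPM per kilobase (SD, n = 3), followed by Mir142hg at 41.6 ± 18.8, whose exons cover only 269 bases, and Gas5 at 35.2 ± 5.70. Neat1 fell to place 11 at 7.83 ± 4.59 CPM per kilobase, because its merged exon covers 20771 bases, and Dancr was last at 1.71 ± 0.200. Reads of the short and the long form of Neat1 were not told apart, so its place holds for the merged length only. The median over the detected members was 10.0 CPM per kilobase, against 8.65 for all detected genes and 2.06 for other detected noncoding genes. In this order only 2 of 17 steps were larger than the sum of the SDs of the neighbouring genes, the one from Gas5 to Snhg6 (22.1 ± 1.41) and the one from Snhg15 (11.8 ± 1.11) to Snhg12 (8.27 ± 1.05). The other neighbours did not differ beyond their spread.

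**Figure D2:**
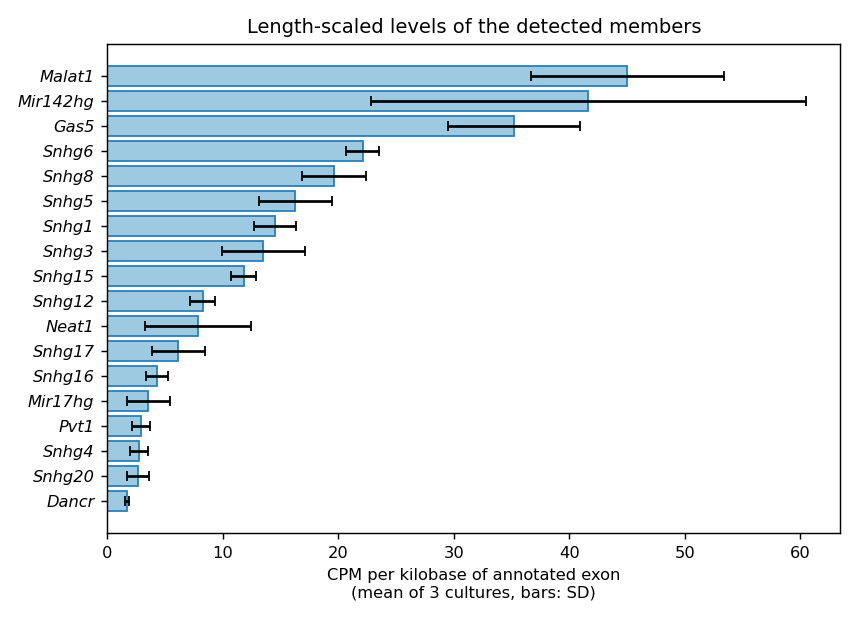
Mean level of each detected member in CPM per kilobase of annotated exon, with bars for the SD over 3 cultures. Malat1, Mir142hg and Gas5 lie between 35.2 and 45.0, and the wide bar of Mir142hg (SD of 18.8) spans its neighbours.

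The comparison of cultures entered the choice of the genes, and its counts are given as a description. Culture 1 was the highest for 17 of 18 detected members, where it was the highest for 41.5% of all detected genes and 67.4% of other detected noncoding genes. It was at 1.5 times or more the mean of cultures 2 and 3 for 8 members, against 2.78% of all detected genes and 16.5% of the other noncoding genes. With a mean of at least 10 reads, 15 of 22 members had the culture 1 interval above both others, against 8.97% of all such genes, 9.26% of protein-coding genes and 11.0% of other noncoding genes. The fifteenth, Mir181a-1hg, was below the detection threshold. Whether intervals overlap depends on the number of reads, and these sets of genes were not matched for it. No member had culture 1 below both others (4.12% of all genes) or culture 2 above both others (1.04%), 1 had culture 3 above both others (4.79%, Snhg8), and 2 had culture 3 below both others (2.37%, Malat1 and Neat1).

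The median ratio of culture 1 to the mean of cultures 2 and 3 was 1.41 over the detected members, 1.01 over 10988 detected genes, 1.002 over detected protein-coding genes and 1.12 over the other detected noncoding genes. On the log2(CPM + 1) scale the medians were 0.46 for the members, 0.01 for all detected genes and 0.13 for the other noncoding genes. Between cultures 2 and 3 the members moved less: the ratio of culture 2 to culture 3 ran from 0.822 for Snhg8 to 1.12 for Malat1 and Snhg3, with a median of 1.03. Across the 18 members the ratio of culture 1 had a Spearman rho of 0.480 with exon length and of -0.0857 with mean CPM. All points come from the same 3 libraries, and the height of culture 1 entered the choice of the members. No rho over other genes stands beside these values, so nothing is read from them.

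**Figure D3:**
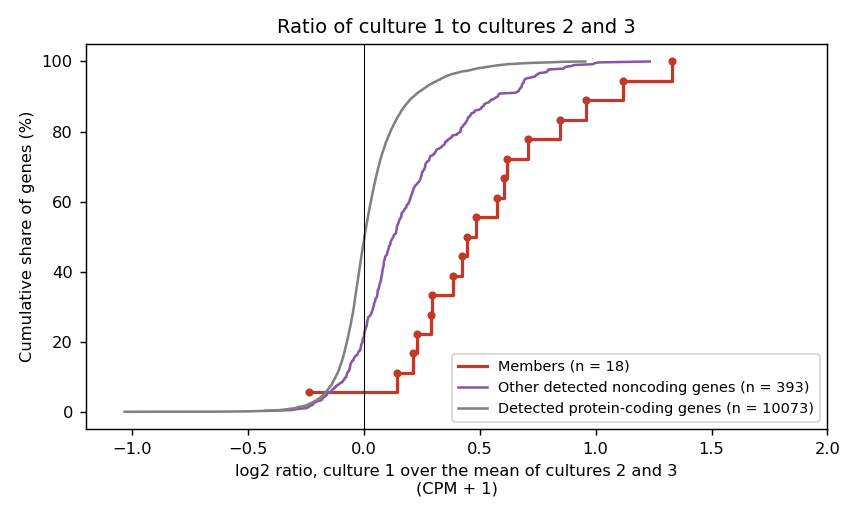
Cumulative share of genes (vertical axis, percent) by log2 ratio of culture 1 to the mean of cultures 2 and 3 (horizontal axis, CPM + 1) for the 18 detected members, 393 other detected noncoding genes and 10073 detected protein-coding genes. The curve of the members lies to the right, with a median of 0.46, against 0.13 for other noncoding genes and 0.00 for protein-coding genes, and Snhg8 is the single point left of 0.

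Other quantities also moved between the cultures, and their part in the ratios was not tested. Mitochondrial genes took 1.68%, 1.31% and 1.04% of the reads in cultures 1, 2 and 3, and ribosomal protein genes 6.79%, 7.05% and 7.38%. Noncoding genes outside the member list took 0.653%, 0.558% and 0.542%. Annotated snoRNA, scaRNA, snRNA and rRNA genes took 0.150%, 0.173% and 0.210%, an order opposite to that of the members. Histone genes, whose messages mostly lack a poly(A) tail, were at 0.00255%, 0.00262% and 0.00251%.

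That most members contain small RNA genes follows from the symbol rule, since Snhg and Mir symbols ending in hg name host genes. The rule did not use the place of these inner genes in the host or the reads on them. The detected members contain 50 annotated small RNA genes on their own strand, 40 snoRNA or scaRNA genes in 13 hosts and 10 microRNA genes. Overlapping entries were counted separately, such as those of Snord80 in Gas5 and of Snora16a in Snhg12. None of the 45 that lay wholly inside a merged exon of the host had a read in any culture (37 snoRNA or scaRNA and 8 microRNA genes), among them all 10 in Gas5 and all 6 in Mir17hg. All 3 in an intron had reads: Snora73b in Snhg3 with 101, 50 and 52 reads, Snord87 in Snhg6 with 30, 16 and 14 reads, and Mir142 in Mir142hg with 78, 56 and 50 reads in cultures 1, 2 and 3. Snora73a and Gm49347, both partly in an exon of their hosts, had 11, 7 and 7 reads and 1, 0 and 0 reads. Merged exons include isoforms that keep an intron, and the rule by which the authors' program treats reads on overlapping genes is not given in the sources used here. Whether reads from inner genes were counted for the host was not tested, and a 0 for an inner gene is no measure of its RNA.

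**Figure D4:**
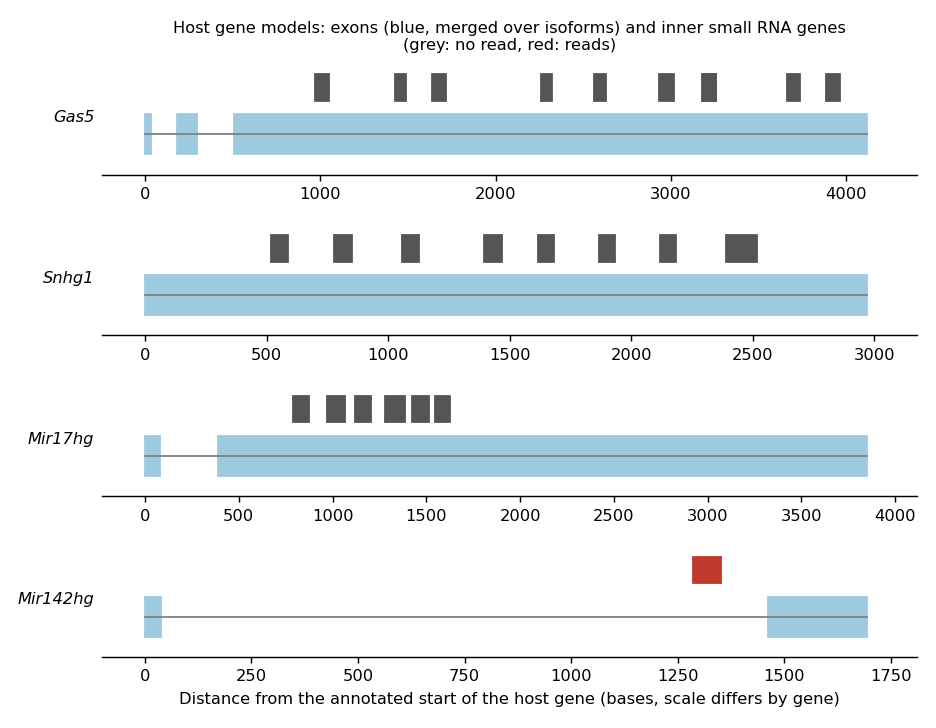
Models of Gas5, Snhg1, Mir17hg and Mir142hg by distance from the annotated start in bases, with exons merged over isoforms in blue and inner snoRNA or microRNA genes above them, grey without a read and red with reads; inner genes that overlap share a box. All inner genes of Gas5, Snhg1 and Mir17hg lie over exons and have no read, and Mir142 lies in the intron and has 78, 56 and 50 reads in cultures 1, 2 and 3.

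Many members lie beside a protein-coding gene, and the nearest one was detected for 13 of the 18. Rcc1, a chromatin-bound exchange factor, starts 81 bases from Snhg3 and had 65.1, 63.9 and 66.1 CPM in cultures 1, 2 and 3. Slc3a2, an amino acid transporter chain that starts 106 bases from Snhg1 on the other strand, had 158, 166 and 162 CPM. Zbtb37, which starts 427 bases from Gas5 on the other strand, had 41.1, 38.5 and 34.6 CPM. Myc, upstream of Pvt1, had 405, 386 and 391 CPM, a ratio of culture 1 to the mean of cultures 2 and 3 of 1.04, where Pvt1 had 1.55.

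The median of this ratio over the 13 neighbours was 1.03, with a range from 0.830 for Frmd8, next to Neat1, to 1.79 for Tspoap1, next to Mir142hg. Tspoap1 had 104, 59.5 and 56.6 CPM and was the single neighbour at 1.5 times or more. In all 13 pairs the member had the higher ratio. The height of culture 1 entered the choice of the members but not of the neighbours, so this is a description only. Culture 1 was the highest for 7 of the 13 neighbours, against 41.5% of all detected genes. The nearest coding genes of Snhg17, Snhg6, Snhg8, Mir17hg and Snhg16 were not detected.

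**Figure D5:**
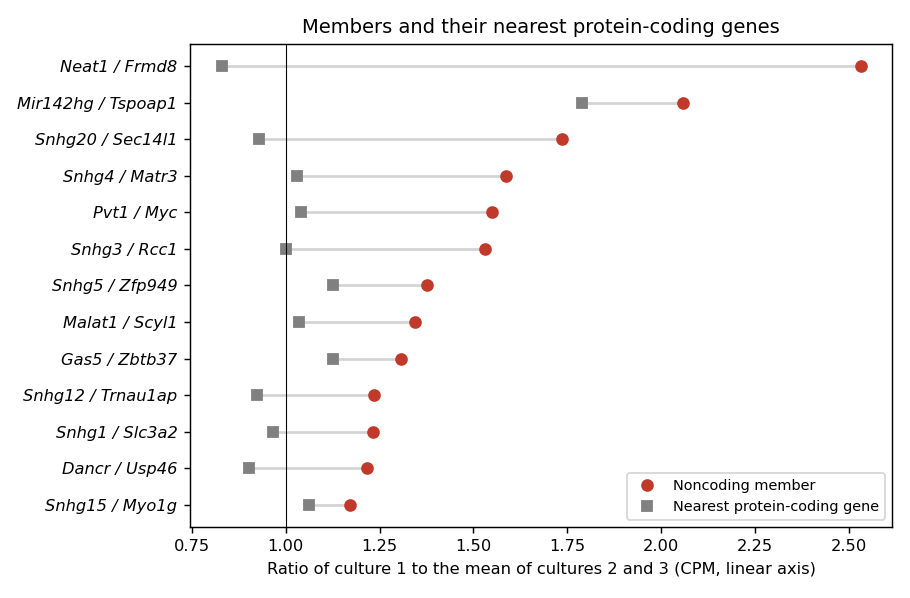
Ratio of culture 1 to the mean of cultures 2 and 3 (linear axis) for each detected member (red circles) and its nearest protein-coding gene (grey squares), for the 13 pairs in which both were detected. Every member lies to the right of its neighbour, and Tspoap1 at 1.79 is the neighbour closest to the range of the higher members.

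The proteins that build snoRNA particles were all present, with 15 of 15 genes detected. Ruvbl2, an ATPase of the assembly complex, averaged 277 ± 30.3 CPM (SD, n = 3), Nolc1, a nucleolar chaperone, 194 ± 6.10, and Nop56, a box C/D core protein, 174 ± 20.7. Shq1, which assists dyskerin, was the lowest at 18.4 ± 1.05 CPM. One of the 15, Nop56, had the culture 1 interval above both others (8.97% of all genes, for this and the lists that follow), and 1 had it below (4.12%), with a median ratio of 0.990.

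Protein-coding snoRNA hosts were set beside the noncoding hosts, and all 24 were detected. The translation factor Eef2 averaged 6538 ± 424 CPM, the ribosomal scaffold Rack1 3149 ± 219 and Rps3 2205 ± 41.5, with Rcc1 the lowest at 65.0 ± 1.11. Culture 1 was the highest in 5 of the 24 protein-coding hosts, where it was the highest in 12 of 13 detected noncoding hosts. The share over all detected genes was 41.5%, and over other detected noncoding genes 67.4%. The height of culture 1 entered the choice of the noncoding group, so comparisons with it are descriptions only. Of the coding hosts 3 had the culture 1 interval above both others (Eif4a2, Nop56 and Gnl3; 8.97% of all genes) and 10 had it below (4.12% of all genes), and their median ratio was 0.980, against 1.31 for the noncoding hosts.

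In microRNA processing 12 of 13 genes were detected. Ago2, the Argonaute with slicing activity, averaged 490 ± 50.8 CPM, the exporter Xpo5 127 ± 1.65 and Tnrc6b, which links Argonautes to deadenylation, 127 ± 12.4. Ago4 had a single read in the 3 cultures together. Of these genes 1 had the culture 1 interval above both others (Tnrc6a) and 2 had it below.

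All 15 genes of nonsense-mediated decay were detected. The kinase Smg1 averaged 205 ± 12.1 CPM and the exon junction protein Rbm8a 110 ± 4.20. Magohb was the lowest at 4.18 ± 0.713 CPM. Smg5 and Upf3b had the culture 1 interval above both others and 1 gene had it below, with a median ratio of 1.01.

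Paraspeckle proteins, partners of Neat1, were detected for 13 of 14 genes. Hnrnpk averaged 717 ± 12.5 CPM, Hnrnpa1 685 ± 55.4 and the core protein Nono 564 ± 27.2, while Rbm12b1 stood at 0.098 ± 0.0235 CPM. In 5 of them, with Hnrnpa1, Sfpq, Cpsf6 and Hnrnph3 among these, the culture 1 interval was above both others (8.97% of all genes), and in 1 it was below (4.12%). Their median ratio was 1.03, where Neat1 had 2.53.

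The nuclear exosome and its poly(A) RNA targeting factors, which degrade nuclear RNAs and some host transcripts, were detected for 18 of 18 genes. The poly(A) polymerase Papola averaged 307 ± 6.92 CPM, the nuclease Exosc10 127 ± 3.10 and the helicase Mtrex 96.5 ± 2.88. Pabpn1, the nuclear poly(A) binding protein, was the lowest at 8.01 CPM on average, with 11.6, 6.38 and 6.05 CPM in cultures 1, 2 and 3 and a ratio of 1.87. Zfc3h1, Exosc8 and Pabpn1 had the culture 1 interval above both others and none of the 18 had it below.

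The tRNA-like ends of Malat1 and Neat1 are cut by RNase P and RNase Z, and 10 of 10 genes for these enzymes and CCA addition were detected. Elac2, an RNase Z, averaged 56.4 ± 0.750 CPM, the CCA-adding enzyme Trnt1 46.7 ± 1.58 and the RNase P protein Pop5 32.2 ± 0.668, with Rpp38 the lowest at 11.0 ± 0.485. None of the 10 had the culture 1 interval above or below both others.

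Among 38 measured long noncoding or structural RNAs with a known name, 16 were detected and 13 had no read, one of which, Mir100hg, is also a member. Oip5os1 averaged 222 ± 7.31 CPM, Tug1 155 ± 17.8 and Ptprv 72.1 ± 23.1. Ptprv bears the name of a protein tyrosine phosphatase gene but is listed as a processed transcript. It was kept in the counts of this list and is not shown to be a noncoding RNA. The detected gene with the lowest mean was Rn7sk at 1.48 ± 0.231 CPM, and Rmrp, Terc and Rpph1 had no read in these libraries of polyadenylated RNA. Culture 1 was the highest for 13 of the 16 detected, against 41.5% of all detected genes and 67.4% of detected noncoding genes outside the members. Tug1, Ptprv, Firre, Ftx and Dleu2 had its interval above both others, none had it below, and the median ratio was 1.15, where the detected members had 1.41. Firre, a nuclear RNA made from the X chromosome, had 82.8, 46.3 and 43.6 CPM, and Dleu2, host of miR-15a and miR-16-1, had 8.27, 5.14 and 3.87 CPM in cultures 1, 2 and 3.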

How the data were processed

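Polyadenylated RNA of 3 separate Ba/F3 cultures was sequenced as 50-base single-end reads after a strand-marking library preparation, per the labels' protocols and the series' design text. The authors aligned reads to GRCm38 with HISAT2 and counted them with GenSum, per the series' design text, and the submitters' processing notes name the same aligner and build. For versions, the annotation, strand handling and overlapping genes, the sources used here state nothing.

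The authors' deposited values are log2(reads per 10000000 + 1). Whole reads were recovered for 100% of entries (tolerance of 0.01), with totals of 32044889, 33880292 and 37180883, so that 1 read was worth 0.0312, 0.0295 and 0.0269 CPM in cultures 1, 2 and 3. In 0 of 23001 rows with reads did identifier and symbol name the same gene. Cultures 1 and 2 follow the identifiers and culture 3 the symbols, so culture 3 was joined through GENCODE (GRCm38) by symbol (53150 rows), coordinates (1976) or RefSeq synonym (10), giving 55106 genes after leaving out 310 rows with no match, 40 ambiguous rows and 30 rows whose gene has no identifier row. The join was made from the data. Of 85 genes at 1000 CPM or more in cultures 1 and 2, 0% differed by 2 times or more in culture 3 when joined, against 61.2% of 85 rows as deposited. Over all genes at 10 CPM or more the median absolute log2 difference was 0.0586 joined and 0.0525 on the rows as deposited, so this measure does not favour the join; both orders run by level, with the rows of a gene a median of 49 apart. Cultures 2 and 3 were also compared over genes or rows with 20 to 99 reads in culture 1. Their median squared difference, scaled by counting error, was 0.566 joined and 0.464 as deposited, which does not favour the join either. By contrast, 7 of the mitochondrial coding genes had culture 3 to culture 2 ratios of 0.771 to 0.885 when joined. On the rows as deposited their range was 0 to 2.47. The deposited average mixes genes and was not used.

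CPM used all reads of a column, and levels per kilobase the exon length merged over isoforms. Intervals are exact Poisson (95%) for counts and Wilson for shares. A culture was called above or below the others when its interval overlapped neither, at a mean of at least 10 reads. With 1 group and no contrast no test was made, and no count model was needed. The interval rule itself was run before use on simulated Poisson reads with known changes. The simulated cultures had no variation beyond counting error, so that run does not show how the rule behaves on real cultures.

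The members and lists were chosen with earlier results of these data known. Every detected member is given in each culture, other members by range or count, and in each list the 3 highest genes and the lowest, plus genes that counts of 5 or fewer refer to. Some genes this rule names are not reported here. In the last list the lowest detected gene is given, as 13 had no read. Members matched the RefSeq tables by symbol, and those on chromosome 18 were left out of the promoter search. Python 3.11.15, numpy 2.4.6, pandas 2.3.3, SciPy 1.17.1 and matplotlib 3.10.9 were used.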

Additional observations from a re-analysis of the deposited data

How the results depend on the processing

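The number of detected members was 18, with 17 to 20 under the thresholds, scalings and joins tried and 18 to 19 with a culture left out. The number with the culture 1 interval above both others was 15, with 14 to 16 under other settings except on the rows as deposited, where it was 5; there the identifier and the symbol of a row name different genes. Leaving out culture 2 or culture 3 gave 15 to 16. The share of reads on the members was 0.0900%, 0.0764 to 0.0979% with a culture left out, and 0.0585% without Malat1, since that member is the largest. The median log2 ratio of 0.46 lay between 0.38 and 0.50 in all alternatives. The scalings moved the median of all detected genes to between -0.02 and 0.01 and left 17 of 18 members highest in culture 1. The 108 alternative means of single members stayed within 1 SD. Leaving out 1 of 3 cultures cannot move a mean by 1 SD, so for those alternatives this is no check. The mean of Neat1 was 108 CPM without culture 1, against 163 CPM. The 40 alternative counts of the related lists stayed within 1.5 times. No paired analysis was possible because all 3 cultures form 1 group. Counts, recovered reads and intervals describe these 3 libraries; culture 1 against the others has no replicate.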
